A study of Homo sapiens with 4 samples.

Results

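The genes described here encode the cereblon ubiquitin ligase and the proteins that lenalidomide and related drugs make it destroy. They were chosen by symbol: 5 ligase subunits (CRBN, DDB1, CUL4A, CUL4B and RBX1) and 5 drug-induced substrates (IKZF1, IKZF3, ZFP91, CSNK1A1 and GSPT1), 10 of 22187 genes in the tables. All 10 had 1 gene identifier each, and all 10 passed the filter on low counts.

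The RNA came from KMS28BM and KMS18, human multiple myeloma cell lines that both carry the t(4;14) translocation. Each line was sequenced once with a stable knockdown of PKCα, the kinase encoded by PRKCA, and once with a luciferase control construct (4 libraries in all). The labels list no drug treatment, and the sources used here do not give the knockdown sequence or say whether a culture was 1 clone or a pool. Each line and construct was sequenced as 1 library, so a knockdown difference inside a line is a value without a test, and only its recurrence in the other line repeats it.

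A cullin-RING ligase is built in layers. CUL4A or CUL4B is the scaffold, RBX1 binds one end of it and recruits the ubiquitin-charged enzyme, DDB1 bridges the other end, and CRBN, the substrate receptor, docks on DDB1. Thalidomide analogues sit in a pocket of CRBN and create a new surface that captures proteins it would not otherwise bind. In myeloma cells the loss of IKZF1 (Ikaros) and IKZF3 (Aiolos), transcription factors of lymphoid and plasma cells, is the main route by which lenalidomide acts, and low CRBN is a known route to resistance. CSNK1A1, casein kinase 1 alpha, is the lenalidomide substrate best known from myelodysplasia with a chromosome arm deletion. ZFP91 is a zinc finger protein, and GSPT1 is a translation termination factor degraded with newer cereblon ligands rather than with lenalidomide itself.

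What the 5 substrates share in the drug-bound complex is a glycine at the tip of a hairpin loop, which in IKZF1, IKZF3 and ZFP91 lies in a zinc finger. The 27 coding bases around that glycine are shown because they carry the feature that makes the encoded proteins substrates. They are GENCODE 29 sequence on GRCh38, 5′ to 3′ on the coding strand, with the glycine codon in capitals.
IKZF1 (chr7:50382557-50382583, plus strand): tgcaatcagtgcGGGgcctcattcacc
IKZF3 (chr17:39791540-39791566, minus strand): tgtaatcagtgtGGGgcatcttttact
ZFP91 (chr11:58617197-58617223, plus strand): tgtgagatctgtGGAtttacttgtcga
CSNK1A1 (chr5:149550173-149550859, minus strand): aacatcaccaacGGCgaggaagtggca
GSPT1 (chr16:11875885-11875911, minus strand): gacaaaaaatcaGGAgaaaaaagtaag
The stretch lay within 1 exon in IKZF1, IKZF3, ZFP91 and GSPT1, and crossed an exon junction in CSNK1A1, so the CSNK1A1 coordinates include an intron. IKZF1 and IKZF3 matched at 21 of these 27 bases and differed at 6. Transcripts with and without the stretch were counted together in the tables: 7 of 14 listed protein-coding IKZF1 transcripts, 8 of 15 for IKZF3, 4 of 9 for CSNK1A1 and 5 of 7 for GSPT1 held it. A gene level below is therefore not a level of degradable protein.

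The libraries held 37940949 to 39507281 expected counts. PRKCA was at 2.43 FPKM in KMS28BM knockdown cells against 10.86 FPKM in KMS28BM control cells, and at 1.47 FPKM in KMS18 knockdown cells against 7.46 FPKM in KMS18 control cells. FPKM counts fragments per kilobase of listed gene length and is scaled to library size. Plasma cell markers were present, as the myeloma label implies: all 11 with a row reached 1 FPKM in some library. JCHAIN alone, at 6760 and 6689 FPKM in KMS28BM (knockdown and control) and 5376 and 5701 FPKM in KMS18, made up most of their summed level. The other 10 summed to 1173 and 1972 FPKM in KMS28BM (knockdown and control) and to 1236 and 2004 FPKM in KMS18, lower in knockdown cells of both lines. In the knockdown comparison over both lines 6 of the 11 fell (XBP1, MZB1, SLAMF7, TNFRSF17, SDC1 and IRF4) and 1 rose (CD38) at an edgeR adjusted p under 0.05, with a median log2 difference of -0.65, where 8.82% of all genes tested were called. DESeq2 called the same numbers, and limma on log2(FPKM + 1) called 0 higher and 5 lower. XBP1, the secretory-pathway transcription factor, was at 265 FPKM in KMS28BM knockdown cells against 472 FPKM in control cells, and at 196 FPKM in KMS18 knockdown cells against 360 FPKM in control cells (-0.90, SE 0.10, edgeR adjusted p = 0.00671). FCRL5 and TNFRSF13B stayed under 1 FPKM in KMS28BM. Of 6 T cell markers only CD3E reached 1 FPKM (3.27 and 1.0 FPKM in KMS28BM knockdown and control, 20.95 and 7.32 FPKM in KMS18), with CD3D, CD3G, CD2, CD4 and CD8A at or below 0.4 FPKM in every library. CD3E rose with the knockdown (1.503, SE 0.16, edgeR adjusted p = 0.00611). Of 6 mature B cell markers with a row 3 reached 1 FPKM (CR2 at 5.63 to 14.23, BACH2 at 3.04 to 6.97 and PAX5 at 2.29 and 1.61 in KMS18 only), and MS4A1, FCER2 and CD22 did not. Their sums were 11.4 and 22.0 FPKM in KMS28BM (knockdown and control) and 14.2 and 16.1 FPKM in KMS18, and BACH2 fell with the knockdown (-0.81, SE 0.13, edgeR adjusted p = 0.0158). Of 5 myeloid markers ITGAM (1.61 FPKM) and of 3 stromal and endothelial markers PECAM1 (2.25 FPKM) passed 1 FPKM, both in KMS18 knockdown cells alone, and 0 of 2 erythroid markers did.

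CRBN mRNA was lower in KMS28BM than in KMS18, whichever construct the cells carried. It was at 7.56 FPKM in KMS28BM knockdown cells and 7.33 FPKM in KMS28BM control cells, against 16.90 and 15.26 FPKM in the matching KMS18 cells (ENSG00000113851.14, chromosome 3, 3144628 to 3179727, minus strand, GRCh38). Both KMS28BM libraries lay below both KMS18 libraries. The log2 difference, KMS28BM minus KMS18, was -1.40 with an SE of 0.12, the largest in size among the 10 genes, and KMS28BM was lower in 2 of 2 construct-matched pairs. In edgeR's quasi-likelihood test its p after Benjamini-Hochberg adjustment was 8.85e-05, the "edgeR adjusted p" of the values that follow. Inside each line the interval of the CRBN knockdown difference included 0: the log2 ratio of scaled counts, knockdown over control, was -0.09 (95% interval -0.27 to 0.09) in KMS28BM and 0.10 (-0.02 to 0.21) in KMS18. Intervals within a line are exact binomial intervals on the counts and cover counting error only. Over both lines the difference was 0.01 (SE 0.12, edgeR adjusted p = 0.981). In bulk RNA a lower level of a transcript cannot be told apart from fewer cells that carry it.

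CRBN was also the scarcest of the 10 transcripts per length in KMS28BM, where it ranked 10 of 10 in both libraries. In KMS18 it ranked 8 of 10 in knockdown cells and 9 of 10 in control cells. Among genes at 1 FPKM or more, CRBN exceeded 34.5% and 34.0% in KMS28BM (knockdown and control), against 59.9% and 56.0% in KMS18. The listed length of CRBN, which the tables give separately for each library, was 1769 and 1843 bases in KMS28BM knockdown and control cells against 2083 and 2070 bases in KMS18. A shorter listed length raises FPKM for the same counts, and the line difference was therefore smaller on FPKM, where KMS28BM cells had 0.447 (knockdown) and 0.480 (control) of the KMS18 level. CRBN overlaps TRNT1, a tRNA-processing enzyme gene on the other strand, and the kit did not keep strand, so reads in the shared part cannot be assigned by strand. The same holds for DDB1 with TKFC and for CUL4A with PCID2. All positions given are on GRCh38.

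**Figure D1:**
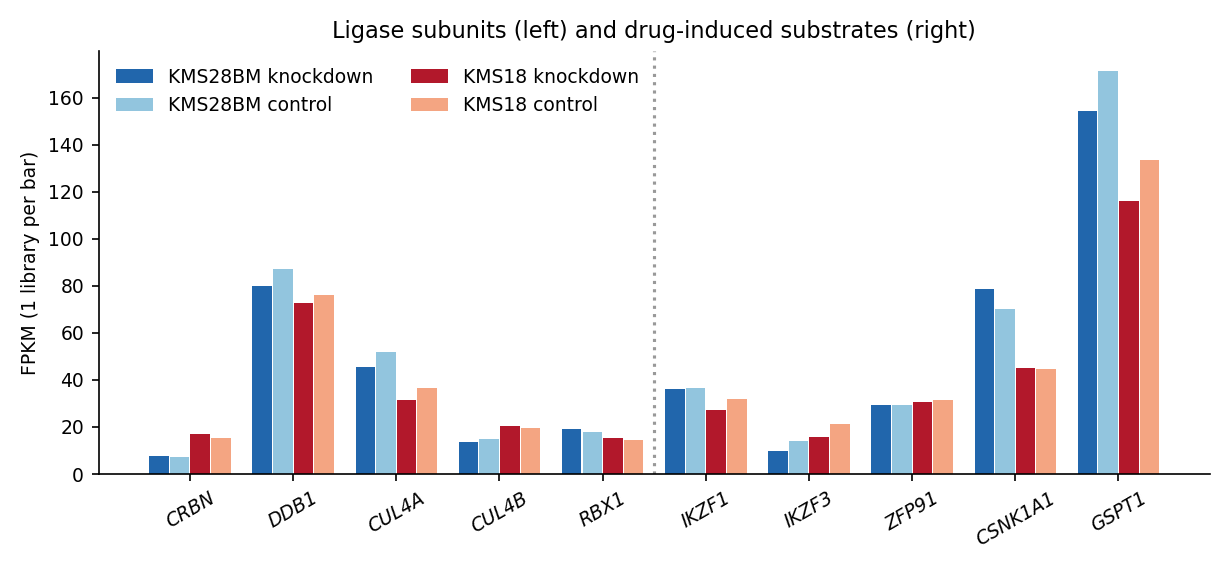
FPKM of the 10 genes in the 4 libraries (1 bar per library, no error bar because each bar is 1 library), with ligase subunits left of the dotted line and substrates right of it. CRBN is at 7.33 to 7.56 FPKM in KMS28BM and 15.26 to 16.90 FPKM in KMS18, and GSPT1 is the highest gene in every library.

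The adaptor DDB1 was the most abundant subunit. It was at 79.9 FPKM in KMS28BM knockdown cells and 87.2 FPKM in control cells, and at 72.9 and 76.2 FPKM in KMS18 knockdown and control cells (chromosome 11, 61299451 to 61342596, minus strand). DDB1 serves every CUL4 ligase, not only the one with cereblon. It was slightly lower in both knockdown libraries, with a log2 difference of -0.17 (SE 0.10) that did not pass the edgeR test (adjusted p = 0.322), and KMS28BM minus KMS18 was 0.09 (SE 0.10, edgeR adjusted p = 0.473). Set against this adaptor, CRBN was lower in KMS28BM: the ratio of CRBN to DDB1 on FPKM was 0.0946 and 0.0841 in KMS28BM (knockdown and control), against 0.2318 and 0.2002 in KMS18.

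The paralogous scaffolds CUL4A and CUL4B differed between the lines in opposite directions. CUL4A (chromosome 13, 113208193 to 113267108, plus strand) was at 45.41 and 52.05 FPKM in KMS28BM knockdown and control cells, against 31.6 and 36.6 FPKM in KMS18. CUL4B (chromosome X, 120524609 to 120575794, minus strand) was at 13.51 and 15 FPKM in KMS28BM knockdown and control cells, against 20.6 and 19.4 FPKM in KMS18. For both genes the lines did not overlap. CUL4A was higher in KMS28BM, at 0.43 log2 units (SE 0.09, edgeR adjusted p = 0.00614), and CUL4B was lower, at -0.52 (SE 0.10, edgeR adjusted p = 0.00342). With the constructs unmatched, CUL4A missed the threshold (edgeR adjusted p = 0.112).

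On FPKM, CUL4A exceeded CUL4B by 3.36 times in KMS28BM knockdown cells and 3.47 times in KMS28BM control cells, against 1.53 and 1.89 times in KMS18 knockdown and control cells. The counting intervals were 3.19 to 3.54 and 3.31 to 3.64 in KMS28BM, and 1.46 to 1.61 and 1.80 to 1.98 in KMS18. Within a line, knockdown cells had the lower ratio on FPKM, and only in KMS18 did the knockdown and control intervals not overlap. That contrast includes listed length, which differed in knockdown cells by -5.13% (CUL4A) and 3.26% (CUL4B) in KMS28BM. In KMS18 the length differed by 1.72% (CUL4A) and -4.27% (CUL4B). On scaled counts, knockdown over control, CUL4A and CUL4B gave -0.35 and -0.18 in KMS28BM, and -0.25 and -0.03 in KMS18. CUL4A was lower in knockdown cells in 2 of 2 lines, with a log2 difference of -0.30 (SE 0.09). Its edgeR p was 0.0164 unadjusted, which ranked 2440 among 14870 genes, and 0.0997 adjusted. CUL4B gave -0.11 (SE 0.10, edgeR adjusted p = 0.55).

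RBX1 is the small RING subunit that all CUL4 ligases share. It was at 19.28 and 17.95 FPKM in KMS28BM knockdown and control cells and at 15.4 and 14.6 FPKM in KMS18 (chromosome 22, 40951347 to 40973309, plus strand). The knockdown difference was 0.02 log2 units (SE 0.12, edgeR adjusted p = 0.957), and KMS28BM minus KMS18 was 0.21 (SE 0.12, edgeR adjusted p = 0.161). Its counts, 658 to 881 per library, were among the lowest of the 10 genes, so its intervals were wide.

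**Figure D2:**
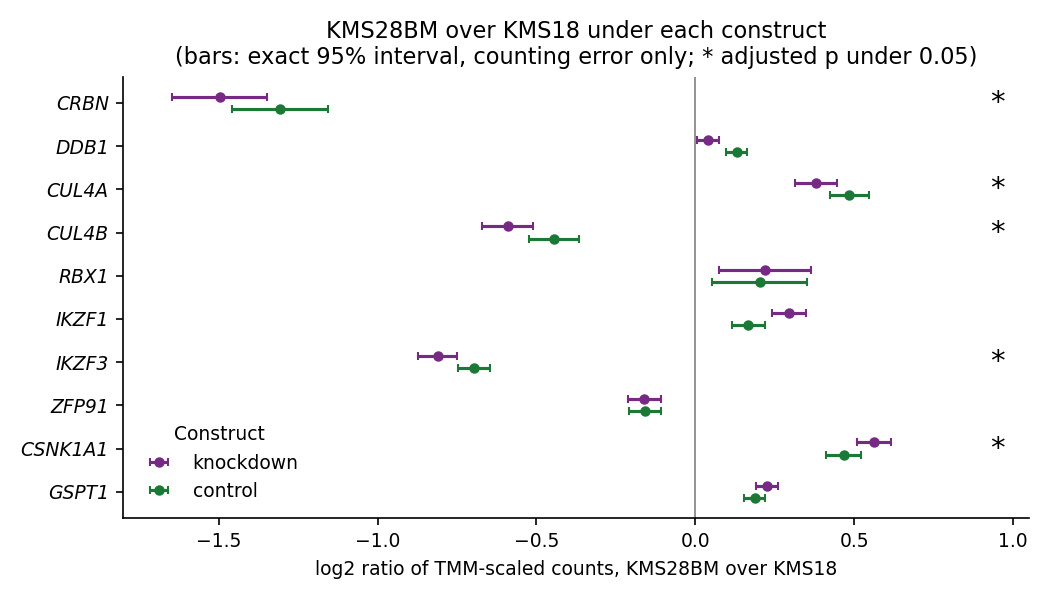
Log2 ratio of scaled counts, KMS28BM over KMS18, for each gene under each construct (points, with exact 95% intervals that cover counting error only, and an asterisk at an edgeR adjusted p under 0.05). CRBN lies furthest from 0 at -1.50 (knockdown) and -1.31 (control), and CUL4A and CUL4B lie on opposite sides of 0.

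Of the 10 genes, 5 differed between the lines in the edgeR test (CUL4A and CSNK1A1 higher in KMS28BM, and CRBN, CUL4B and IKZF3 lower). Among all 14870 genes tested 62.9% did, so the members were not called more often than genes at large. The median line difference was 0.15 over the 10 genes and -0.02 over all genes tested.

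IKZF3 was the one member that fell with the knockdown. It was at 9.89 FPKM in KMS28BM knockdown cells against 14.13 FPKM in KMS28BM control cells, and at 15.64 FPKM in KMS18 knockdown cells against 21.38 FPKM in KMS18 control cells (ENSG00000161405.16, chromosome 17, 39757715 to 39864188, minus strand). Knockdown cells kept 70.0% of the control level in KMS28BM and 73.2% in KMS18. The log2 ratio of scaled counts was -0.62 (95% interval -0.68 to -0.56) in KMS28BM and -0.51 (-0.56 to -0.46) in KMS18. Over both lines the difference was -0.57 (SE 0.10, edgeR adjusted p = 0.0184), lower in 2 of 2 lines. The call held in 5 of 10 settings, DESeq2 among them. In edgeR it was lost with no filter (adjusted p = 0.0566), with 1 row per gene identifier (0.0532) and without the cell line block (adjusted p = 1). It was also lost with limma on log2(FPKM + 1) (adjusted p = 0.0762) and on log2(FPKM + 0.1) (0.128). The direction was the same in all 10 settings, from -0.57 to -0.45. IKZF3 moved together with the 6 plasma cell markers that fell, and their part in the result was not tested.

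Among the 10 genes 1 was called and it fell, beside 8.82% of all 14870 genes (531 rose and 781 fell, or 59.5% lower, and 45.9% lower when counts were scaled by library totals alone). That share is near the background. IKZF3 and CUL4A had an unadjusted edgeR p under 0.05, as did 3919 of all 14870 genes. The median difference was -0.13 over the 10 genes and 0.02 over all genes tested. By size, 0 of 10 members reached an absolute difference of 1 on log2(FPKM + 1) in either line, where 1.99% of genes at 1 FPKM did in KMS28BM and 1.46% in KMS18. Differences of log2(FPKM + 1) had medians over all such genes of 0.05 in KMS28BM and 0.04 in KMS18.

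**Figure D3:**
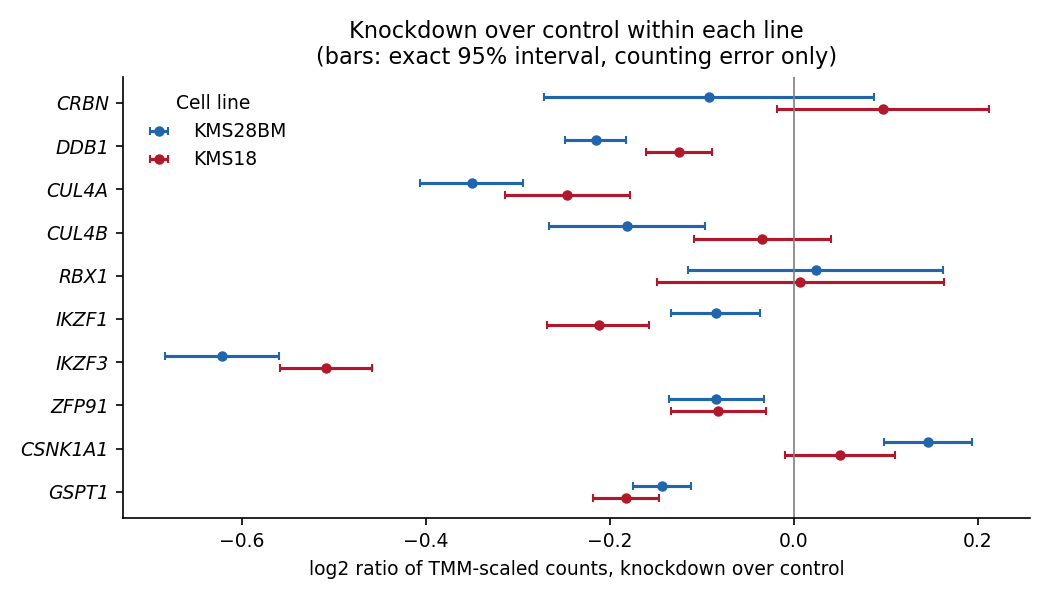
Log2 ratio of TMM-scaled counts, knockdown over control, for each gene in each line (points, with exact 95% intervals that cover counting error only). IKZF3 lies lowest in both lines, at -0.62 in KMS28BM and -0.51 in KMS18, and all other members lie between -0.35 and 0.15.

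IKZF1, the partner factor, did not pass. It was at 36.3 and 36.5 FPKM in KMS28BM knockdown and control cells and at 27.4 and 31.9 FPKM in KMS18 (chromosome 7, 50304068 to 50405101, plus strand). Its ratio of scaled counts was -0.08 (interval -0.13 to -0.04) in KMS28BM and -0.21 (-0.27 to -0.16) in KMS18, and over both lines it gave -0.15 (SE 0.10, edgeR adjusted p = 0.384). IKZF1 was the more abundant Ikaros-family transcript in every library. IKZF3 stood at 0.272 and 0.388 of the IKZF1 level in KMS28BM (knockdown and control), against 0.570 and 0.670 in KMS18. The ratio was lower in knockdown cells in both lines, and the counting intervals of knockdown and control did not overlap in either. IKZF3 was also lower in KMS28BM than in KMS18, at -0.75 log2 units (SE 0.10, edgeR adjusted p = 0.000496, and 0.0828 with constructs unmatched), while IKZF1 gave 0.23 (SE 0.10, edgeR adjusted p = 0.0721). KMS28BM thus had less of both CRBN and IKZF3 mRNA than KMS18.

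**Figure D4:**
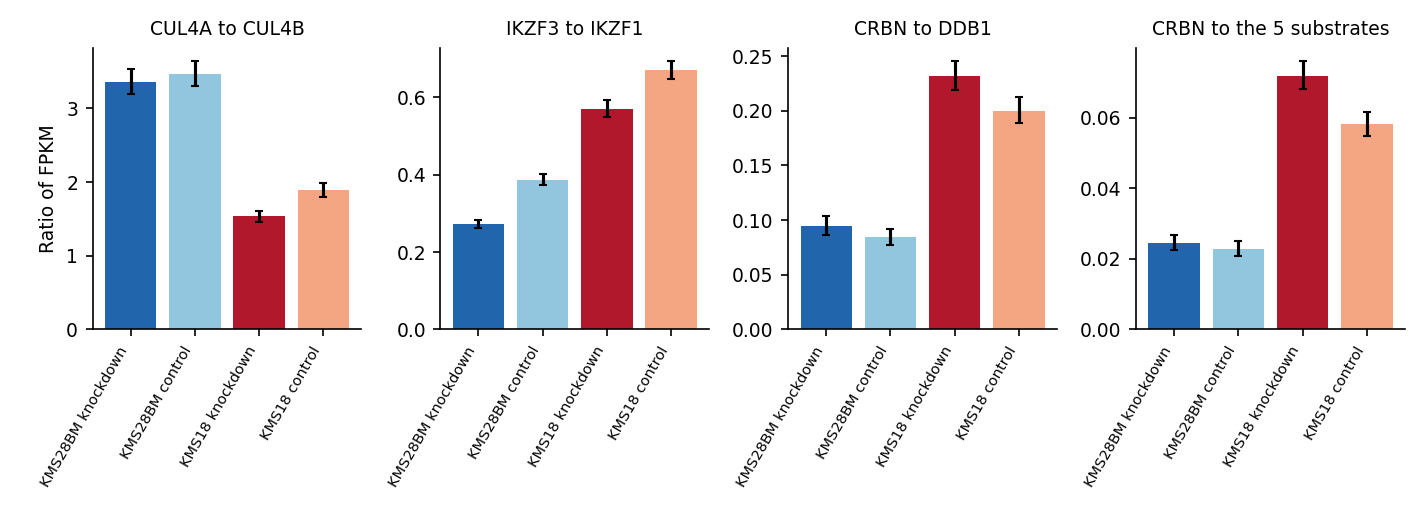
Ratios of FPKM between members in each library (bars start at 0, with intervals that cover counting error only). KMS28BM has the higher CUL4A to CUL4B ratio (3.36 and 3.47, against 1.53 and 1.89 in KMS18) and the lower ratios of IKZF3 to IKZF1, CRBN to DDB1 and CRBN to the 5 substrates.

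ZFP91 was the steadiest of the 10 genes on FPKM. It was at 29.4 and 29.5 FPKM in KMS28BM knockdown and control cells and at 30.8 and 31.3 FPKM in KMS18 (chromosome 11, 58579111 to 58621042, plus strand). Its highest library was 1.06 times its lowest. The knockdown difference was -0.08 (SE 0.09, edgeR adjusted p = 0.628), and the line difference was -0.16 (SE 0.09, edgeR adjusted p = 0.172). ZFP91 shares exons with the read-through gene ZFP91-CNTF, so the counting could split reads between them. That gene was at 3.56 and 3.30 FPKM in KMS28BM knockdown and control cells and at 2.15 and 2.83 FPKM in KMS18, and both genes' values are uncertain for that reason.

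CSNK1A1, the kinase substrate, was higher in KMS28BM. It was at 78.5 and 70.0 FPKM in KMS28BM knockdown and control cells, against 45.0 and 44.4 FPKM in KMS18 (chromosome 5, 149492197 to 149551552, minus strand), which is 0.52 log2 units (SE 0.10, edgeR adjusted p = 0.00282). The lines did not overlap. It was the one substrate with a positive knockdown difference in both lines, 0.15 (interval 0.10 to 0.19) in KMS28BM and 0.05 (-0.01 to 0.11) in KMS18, and over both lines it gave 0.10 (SE 0.09, edgeR adjusted p = 0.565).

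GSPT1 was the most abundant of the 10 in every library. It was at 154.3 and 171.4 FPKM in KMS28BM knockdown and control cells and at 116.2 and 133.3 FPKM in KMS18 (chromosome 16, 11868128 to 11916082, minus strand). It was slightly lower in both knockdown libraries, with a log2 difference of -0.16 (SE 0.10) that did not pass the edgeR test (adjusted p = 0.34). KMS28BM minus KMS18 was 0.21 (SE 0.10, edgeR adjusted p = 0.101) and was called in 4 of 10 settings. GSPT2, a paralogue, was named because the counting might share its reads with GSPT1. It was at 11.08 and 9.15 FPKM in KMS28BM knockdown and control cells and at 10.65 and 7.99 FPKM in KMS18 (knockdown difference 0.28, SE 0.11, edgeR adjusted p = 0.181). Expected counts of GSPT1 were whole numbers in every library, so they show no fractional split of its reads.

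Setting receptor against substrates, the 5 substrate transcripts summed to 308 and 321 FPKM in KMS28BM (knockdown and control), against 235 and 262 FPKM in KMS18. CRBN amounted to 0.0245 and 0.0228 of that sum in KMS28BM, against 0.0719 and 0.0582 in KMS18. Knockdown and control intervals overlapped in KMS28BM (0.0224 to 0.0267 and 0.0209 to 0.0249) and did not in KMS18 (0.0680 to 0.0760 and 0.0548 to 0.0617). These are ratios of mRNA, with 1 library each and no test.

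By level, the order of the 10 genes was stable at the top: GSPT1, DDB1, CSNK1A1 and CUL4A ranked 1 to 4 in all 4 libraries. IKZF1 and ZFP91 followed at ranks 5 and 6. Below them CUL4B, RBX1, IKZF3 and CRBN changed places. In KMS28BM control cells RBX1 (17.95 FPKM), CUL4B (15) and IKZF3 (14.1) lay close together and CRBN stood apart at 7.33, while in KMS18 control cells IKZF3 (21.4), CUL4B (19.4), CRBN (15.3) and RBX1 (14.6) were within a narrow range. The neighbours IKZF1 and ZFP91 changed order between KMS28BM (IKZF1 higher) and KMS18 knockdown cells (ZFP91 higher).

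The length listed for a gene differed between libraries. In knockdown cells CSNK1A1 was listed 3.82% longer in KMS28BM (2534 against 2441 bases) and 6.45% longer in KMS18 (2801 against 2631 bases). GSPT1 was 5.87% longer in KMS28BM (2586 against 2443 bases) and 5.32% longer in KMS18 (2750 against 2611 bases). These were the 2 members whose length was greater in both lines. Among 6963 genes at 5 FPKM or more in every library the central range from percentile 5 to 95 ran from -7.18% to 8.86% in KMS28BM and from -6.05% to 11.92% in KMS18, so neither gene stood outside it. The GSPT1 level in knockdown cells was 90.0% of control in KMS28BM and 87.2% in KMS18 on FPKM, which includes the greater listed length. On scaled counts, which do not use length, its log2 ratio was -0.143 (interval -0.175 to -0.111) in KMS28BM and -0.182 (-0.218 to -0.146) in KMS18.

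**Figure D5:**
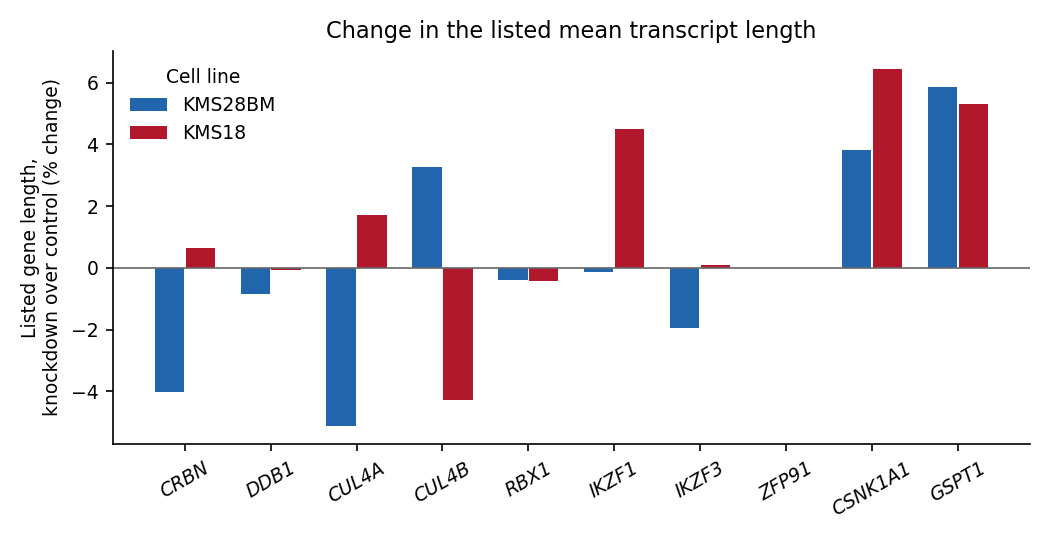
Percent change of the listed gene length, knockdown over control, in each line (1 bar per line, no replicate). CSNK1A1 and GSPT1 are longer in knockdown cells of both lines (3.82% and 6.45%, and 5.87% and 5.32%), and ZFP91, with 1 listed transcript, is unchanged by construction.

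The members were searched for the letters AGTCTA because an earlier look at these data had raised that motif. The sense strand of the 3′ UTR of any GENCODE 29 coding transcript held AGTCTA in 4 of 10 members and in 25.2% of 12979 tested genes with a 3′ UTR. The longer forms AGTCTAA and CAGTCTA, which contain it, occurred in 2 members each, against 9.0% and 8.8% of genes. The reverse complement of AGTCTA occurred in 7 of 10 members and 28.6% of genes. Reverse complements of AGTCTAA and CAGTCTA occurred in 5 members and 1 member, against 11.4% and 10.1% of genes. These shares were not matched for 3′ UTR length, and a longer UTR has more places for a match. The longest 3′ UTR of each member ran from 685 bases (DDB1) to 8075 bases (IKZF3). The sense-strand copies in the longest 3′ UTR of each member are shown with the match in capitals, because IKZF3 is among the genes that hold them.
CRBN (chr3:3150647-3150674, minus strand): gcatgaacggCAGTCTAgaataccagaa
IKZF1 (chr7:50400928-50400955, plus strand): tccaaacgattAGTCTAAattttcagag
IKZF3 (chr17:39765292-39765319, minus strand): atctaaatgaCAGTCTAAgagtaagtaa
IKZF3 (chr17:39758202-39758229, minus strand): ctcaggttctCAGTCTAtgagctttggt
ZFP91 (chr11:58619082-58619109, plus strand): tgaaggaacaaAGTCTAtgagtcctaaa
IKZF3 held 2 copies, one of 8 matching bases and one of 7, at 482 and 7572 bases after the stop codon. CRBN held 1 copy of 7 bases, IKZF1 1 copy of 7 bases and ZFP91 1 copy of 6. The knockdown differences of these 4 genes were -0.57 (IKZF3, the one that passed the edgeR test), 0.01 (CRBN), -0.15 (IKZF1) and -0.08 (ZFP91). Of the 6 members with no sense-strand copy, CUL4A gave -0.30, DDB1 -0.17, GSPT1 -0.16, CUL4B -0.11, RBX1 0.02 and CSNK1A1 0.10. This split holds for the sense strand only. In the longest 3′ UTR, CUL4A, CUL4B, CSNK1A1, GSPT1 and ZFP91 each held 2 reverse complements of AGTCTA. IKZF1 held 3 and IKZF3 held 1, while CRBN, DDB1 and RBX1 held 0. A match is a description of the letters and not evidence that anything binds there, and its part in the IKZF3 result was not tested.

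The ligase depends on a cycle that adds and removes NEDD8 on the cullin. Of 23 genes of that cycle, among them the COP9 subunits that remove it, 0 rose and 0 fell in the edgeR test (6 at an unadjusted p under 0.05, and 0 called by DESeq2 or limma), with a median of 0.02. Of 10 ubiquitin-activating and ubiquitin-carrying enzymes, 0 were called (1 at an unadjusted p under 0.05, and 0 by DESeq2 or limma), with a median of -0.13. Among all 14870 genes in the edgeR test 8.82% were called, and 3919 had an unadjusted p under 0.05.

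Of 24 other CUL4 receptors and adaptors 1 rose and 3 fell, beside 8.82% called among all genes tested, with a median of -0.08. DTL, the replication-coupled receptor, fell to 27.1 FPKM in KMS28BM knockdown cells against 34.6 FPKM in control cells, and to 21.6 FPKM in KMS18 knockdown cells against 40.5 FPKM in control cells (log2 difference -0.60, SE 0.11, edgeR adjusted p = 0.0226). DCAF12, a receptor docked on DDB1 like CRBN, was at 17.9 FPKM in KMS28BM knockdown cells against 27.8 FPKM in control cells, and at 18.02 FPKM in KMS18 knockdown cells against 24.1 FPKM in control cells (-0.60, SE 0.10, edgeR adjusted p = 0.0201). DCAF7, of the same receptor family, gave -0.40 (SE 0.09, edgeR adjusted p = 0.0472). DDA1, a small DDB1-associated subunit, rose to 42.9 FPKM in KMS28BM knockdown cells against 30.2 FPKM in control cells, and to 40.0 FPKM in KMS18 knockdown cells against 30.2 FPKM in control cells (log2 difference 0.50, SE 0.10, edgeR adjusted p = 0.0289). DESeq2 called 2 higher and 4 lower in this list, and limma on log2(FPKM + 1) called 0.

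Among all genes tested 8.82% were called, the share to set beside each of the 3 lists that follow. Of 10 other cullins and their partners 0 rose and 1 fell, with a median of 0.05. CUL5, the scaffold of a separate ligase family, was at 14.1 FPKM in KMS28BM knockdown cells against 20.0 FPKM in control cells, and at 10.1 FPKM in KMS18 knockdown cells against 16.1 FPKM in control cells (log2 difference -0.66, SE 0.10, edgeR adjusted p = 0.0128). Among 20 tested further drug-induced substrates 0 rose and 1 fell, with a median of -0.07. That gene was ZBTB39, a zinc finger protein, at 3.12 FPKM in KMS28BM knockdown cells against 4.61 FPKM in control cells and at 3.32 FPKM in KMS18 knockdown cells against 5.83 FPKM in control cells (log2 difference -0.76, SE 0.12, edgeR adjusted p = 0.0153). Of 11 tested Ikaros-family members and substrate paralogues 1 fell, CSNK1G1, a gamma casein kinase (-0.78, SE 0.12, edgeR adjusted p = 0.0136), with a list median of 0.00. Limma on log2(FPKM + 1) called 0 genes in these 3 lists.

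Of 13 tested partners and stability factors of cereblon, HSP90AA1, a cytosolic chaperone, fell (-0.53, SE 0.12, edgeR adjusted p = 0.0443) and 0 rose, with a median of -0.02. Limma on log2(FPKM + 1) called 0 genes of this list (HSP90AA1 adjusted p = 0.0958). Of 13 tested genes that respond to loss of IKZF1 and IKZF3 in myeloma cells 2 rose and 2 fell, beside 8.82% called among all genes tested, with a median of 0.04. The 9 that were not called ran from -1.31 (EGR1, SE 0.67, at only 0.01 to 0.33 FPKM) to 0.41 (BATF). IRF7, an interferon regulatory factor, gave -0.34 (SE 0.19, edgeR adjusted p = 0.311). MYC and IRF4, growth-promoting factors, were the 2 that fell. MYC was at 304 FPKM in KMS28BM knockdown cells against 646 FPKM in control cells, and at 258 FPKM in KMS18 knockdown cells against 405 FPKM in control cells (-0.91, SE 0.14, edgeR adjusted p = 0.0128). IRF4 was at 90.8 FPKM in KMS28BM knockdown cells against 113 FPKM in control cells, and at 62.3 FPKM in KMS18 knockdown cells against 125 FPKM in control cells (-0.73, SE 0.15, edgeR adjusted p = 0.0338). IFIT3, an interferon-induced gene, and CD38, a surface enzyme, were the 2 that rose. CD38 was at 5.99 FPKM in KMS28BM knockdown cells against 4.99 FPKM in control cells, and at 29.2 FPKM in KMS18 knockdown cells against 26.4 FPKM in control cells. On log2(FPKM + 1) these are differences of 0.22 in KMS28BM and 0.14 in KMS18 (limma adjusted p = 0.336). On scaled counts CD38 gave 0.59 (SE 0.10, edgeR adjusted p = 0.0193), a larger value than on FPKM, and its listed length was 3386 against 2498 bases in KMS28BM (knockdown and control) and 4439 against 3238 bases in KMS18. IFIT3 was low in KMS28BM (0.19 FPKM in knockdown and 0.02 FPKM in control cells) and at 5.47 FPKM in KMS18 knockdown cells against 1.36 FPKM in control cells (2.10, SE 0.34, edgeR adjusted p = 0.0153). DESeq2 also called 2 higher and 2 lower in this list, and limma on log2(FPKM + 1) called 0 higher and 1 lower. The labels list no drug, and a link between these 4 genes and IKZF3 was not tested.

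Over the 4 libraries, the genes whose centred log2(FPKM + 1) profile lay closest to CRBN were RNF146 (distance 0.027), ESYT2 (0.034) and MRPS25 (0.045), of 8638 genes with a mean of 5 FPKM or more. RNF146, itself a ubiquitin ligase gene, was at 5.44 and 5.11 FPKM in KMS28BM knockdown and control cells, against 12.20 and 11.03 FPKM in KMS18. The closest to IKZF3 were SSFA2 (0.062), CYLD (0.065) and BCLAF1 (0.066). With 4 libraries many genes share a profile, and likeness here says only that the 4 values rise and fall alike.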

How the data were processed

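Bulk RNA was sequenced from 4 cultures. Libraries were made from 100 ng of column-extracted total RNA with the TruSeq v2 RNA kit, per the labels' protocols; strand is not kept by it. The authors estimated an expected count for each gene identifier before they deposited the tables, per the file headers. The deposited FPKM values stand beside it, with a gene length, per the file headers. Builds hg19 and GRCh37 and the aligners HISAT, Bowtie2 and STAR appear in the submitters' processing notes without roles, and no source used here names the counting program. The tables hold no coordinates, so positions and sequences come from GENCODE 29 on GRCh38, matched by gene identifier.

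Counts and FPKM were summed over the identifiers of a symbol (23844 identifiers, 22187 genes, 820 symbols with several). Expected counts were rounded and tested with edgeR 4.0.16 (R 4.3.3): TMM scaling, default filter (minimum count 10), cell line and construct as terms, quasi-likelihood test, Benjamini-Hochberg adjustment over 14870 genes at 0.05. The cell line pairs the libraries because each line gave 1 of each construct, which left 1 residual degree of freedom, moderated to a prior of 5.85. A p-value sets a difference against a spread with 2 parts. One part is how alike the lines (or, between lines, the constructs) moved for that gene, with 1 degree of freedom. The other is shared over all genes and has the larger weight (5.85). Neither part is the spread between cultures. The code was tested on simulated data. Alternatives used DESeq2 1.42.0 and limma 3.58.1. The named genes were all 10 members, PRKCA, up to 4 called genes per pathway list and the 3 nearest profiles of CRBN and IKZF3. GSPT2 and ZFP91-CNTF were added as genes that might share reads with members. Marker genes, IRF7, EGR1 and BATF were named after their values were seen. The members, lists and motif were chosen with earlier results of these data known.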

Additional observations from a re-analysis of the deposited data

Results flagged for a closer look

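CRBN moved in opposite directions with the knockdown in the 2 lines on scaled counts: the log2 ratio was -0.09 in KMS28BM (510 counts in knockdown cells, 520 in control cells) and 0.10 in KMS18 (1309 and 1175 counts). The difference, KMS28BM minus KMS18, was -0.19, with an interval of -0.40 to 0.02 that covers counting error only. With 1 library per line and construct this difference was not tested. On log2(FPKM + 1) both were positive (0.04 in KMS28BM and 0.14 in KMS18), and the listed CRBN length differed by -4.01% in KMS28BM knockdown cells and by 0.65% in KMS18 knockdown cells, each against control cells of its line. Of all genes tested, 30.6% had opposite signs in the lines, and 43.1% had a smaller difference between lines than CRBN.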

How the results depend on the processing

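Under median of ratios scaling, library totals alone, 5 CPM in 2 libraries and DESeq2, the knockdown comparison kept its count of calls within 1.5 times (887 to 1342, against 1312) and 1 member was called. The count was 367 genes and 0 members with no filter, 419 and 0 with 1 row per identifier, and 490 and 0 with limma on log2(FPKM + 1). It was 0 and 0 with limma on log2(FPKM + 0.1) (2977 genes and 1 member at an unadjusted p under 0.05) and 0 and 0 in edgeR without the cell line block (215 genes and 0 members at an unadjusted p under 0.05). The cause of these losses was not tested. CRBN reversed with no filter, to -0.001 (adjusted p = 0.998). Leaving out a line leaves no residual degrees of freedom and a value without a test: IKZF3 then ranged from -0.62 to -0.51 and CRBN from -0.09 to 0.10. Between lines, 5 members were called in the test reported, 5 to 7 under the other settings with the block, and 3 without the replicate block on construct, where CUL4A and IKZF3 were lost. Depth limits CRBN and RBX1 most, with 510 to 1309 and 658 to 881 counts.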

Other observations

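Of 10 other cullins and partners 9 were higher in KMS28BM than in KMS18 and 0 were lower in the edgeR test, with a median line difference of 0.51 on the log2 scale, beside -0.02 over all genes tested, of which 62.9% were called. RNF7, the RING subunit that CUL5 uses in place of RBX1, was at 43.2 and 32.6 FPKM in KMS28BM knockdown and control cells, against 15.8 and 11.5 FPKM in KMS18 (log2 difference 1.27, SE 0.12, edgeR adjusted p = 0.000106). CUL1, the scaffold of SCF ligases, was at 76.7 and 86.5 FPKM in KMS28BM, against 36.3 and 41.5 FPKM in KMS18 (0.98, SE 0.09, edgeR adjusted p = 0.000132). These genes, like the others of this section, were named after their values were seen.

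In the NEDD8 cycle 10 of 23 genes were higher in KMS28BM and 3 were lower, with a median of 0.21, no larger a share than the 62.9% called among all genes tested. NEDD8 itself was at 122.1 and 115.5 FPKM in KMS28BM knockdown and control cells, against 55.3 and 52.9 FPKM in KMS18 (1.03, SE 0.10, edgeR adjusted p = 0.000134), and UBE2M, which transfers it to cullins, at 73.3 and 82.1 FPKM, against 37.3 and 46.7 FPKM (0.81, SE 0.10, edgeR adjusted p = 0.00043). CAND1, which exchanges receptors on unmodified cullins, was lower in KMS28BM (-0.59, SE 0.09, edgeR adjusted p = 0.00146). UBA3 was lower by more, at 14.99 and 14.63 FPKM in KMS28BM (knockdown and control) against 44.18 and 44.58 FPKM in KMS18 (-1.63, SE 0.10, edgeR adjusted p = 2.02e-05). GLMN was lower too (-1.21, SE 0.20, edgeR adjusted p = 0.00192). Among 13 tested partners and stability factors of cereblon, 7 were higher in KMS28BM and 4 were lower, with a median of 0.36. GLUL, glutamine synthetase, a natural substrate of cereblon, was among the lower (-1.86, SE 0.12, edgeR adjusted p = 2.33e-05). MEIS2 was among the higher (2.06, SE 0.15, edgeR adjusted p = 3.9e-05). UBE2G1, an E2 used by this ligase with lenalidomide, gave -0.07 (SE 0.10, edgeR adjusted p = 0.566).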
